A study of Mus musculus with 27 samples.

Results

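Lyz1 and Lyz2 are neighbouring mouse genes that both encode lysozyme, and they are 2 of the 48440 genes in the bulk count files and 2 of the 33696 genes in the single cell matrices. They were chosen by name, with their values in these data already known, and because the Lyz2 gene carries the cre recombinase that defines the knockout. Their differences between genotypes are therefore given as descriptions, without a test. All mice carried a floxed Ogt gene and MC38 tumours, grown from a mouse colon adenocarcinoma cell line. KO mice carried Ogt-flox and Lyz2-cre, which deletes floxed DNA in myeloid cells, and WT mice carried Ogt-flox without cre. Ogt encodes O-GlcNAc transferase, which attaches the sugar O-GlcNAc to nuclear and cytosolic proteins. The 27 samples include bulk RNA-seq of tumour-associated macrophages, with 3 KO and 3 WT libraries, and single cell RNA-seq of CD45 immune cells, for which 1 KO and 1 WT matrix were analysed although the labels name 2 samples per genotype. Peak lists from EGR2 CUT&Tag (1 per genotype, 3 KO and 3 WT samples) and ATAC-seq (1 merged list, 3 KO and 3 WT samples) were searched around the genes. The labels give neither the age of the mice nor whether libraries came from separate animals, so bulk p-values measure the spread between libraries, which may be technical.

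Lysozyme cuts the sugar backbone of peptidoglycan, the polymer that forms the bacterial cell wall. Lyz2 is the form of mouse macrophages, monocytes and neutrophils, whereas Lyz1 is best known from Paneth cells of the small intestine. The mouse has both genes side by side because of a duplication, and their transcripts are much alike. In the Lyz2-cre line the cre sequence was placed into the Lyz2 gene itself, so a KO animal differs from a WT animal at this locus as well as at Ogt. How many copies of the cre allele the KO mice carried is not given in the sources used here.

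Both genes lie on the minus strand of chromosome 10 in the mm10 models of the count files. Lyz2 (ENSMUSG00000069516.7) spans 117277334 to 117282274, and Lyz1 (ENSMUSG00000069515.5) spans 117287796 to 117292868. The gap between them is 5.52 kb. Each has 4 exons, with 1266 exonic bases in Lyz2 and 1264 in Lyz1. The exon lengths in the order of transcription are 168, 165, 79 and 854 bases in Lyz2 and 166, 165, 79 and 854 bases in Lyz1, so only the first exon differs in length. The bases just upstream of the start sites are shown because they are where the genes, which differ so much in level, can be compared in sequence. They come from RefSeq on GRCm38.p6 and are the 250 bases before each start, read 5′ to 3′ on the minus strand (chr10:117282273-117282522 for Lyz2 and chr10:117292869-117293118 for Lyz1). Capitals mark bases that differ or stand opposite a gap when the windows are aligned.
Lyz2: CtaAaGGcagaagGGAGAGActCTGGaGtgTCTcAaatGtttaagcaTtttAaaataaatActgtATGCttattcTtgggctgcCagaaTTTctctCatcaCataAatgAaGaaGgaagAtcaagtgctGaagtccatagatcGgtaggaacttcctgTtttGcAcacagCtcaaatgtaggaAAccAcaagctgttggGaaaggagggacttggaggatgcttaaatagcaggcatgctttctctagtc
Lyz1: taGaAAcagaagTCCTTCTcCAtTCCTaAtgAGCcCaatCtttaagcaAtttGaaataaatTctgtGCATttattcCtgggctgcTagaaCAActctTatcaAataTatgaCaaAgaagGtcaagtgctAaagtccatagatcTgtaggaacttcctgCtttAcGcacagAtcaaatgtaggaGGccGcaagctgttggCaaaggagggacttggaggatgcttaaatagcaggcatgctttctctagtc
Of 252 aligned positions, 200 (79.4%) were identical, 48 were mismatches and 4 were gaps, and the last 50 bases before the start were identical. The 11-letter ETS-type run AGGAACTTCCT, picked after the sequences were seen, occurred once in each window. It was found in 0.0487% of 32851 RefSeq mouse windows of 250 bases, both strands searched. The core letters GGAA, which also lie inside that run, occurred 5 times for Lyz2 and 4 times for Lyz1 and were found in 93.4% of windows. A C/EBP-type run, TTNNGCAAT, occurred 0 times for Lyz2 and 1 time for Lyz1 (1.93% of windows). The EGR-type run GCGNGGGCG (4.7% of windows) and TATAAA (12.4% of windows) had 0 matches for either gene.

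In bulk macrophage RNA both lysozyme genes were lower in KO, Lyz2 far more than Lyz1. Values are CPM, read counts scaled to a common library total with edgeR's TMM factors, from libraries of 7032540 to 32406170 counts. Lyz2 had 84.0, 85.6 and 82.5 CPM in the KO libraries, against 3938, 3877 and 3830 CPM in the WT libraries. The 3 KO libraries lay close together and far below every WT library. The means were 84.0 ± 1.52 CPM in KO and 3882 ± 53.8 CPM in WT (SD, n = 3 each), a log2 fold change of -5.53 (SE 0.0239), or 46.2-fold lower in KO. Of the 12939 genes tested, 0 had a lower log2 fold change. By CPM per kilobase of exon, the scale on which genes can be set side by side, Lyz2 had 66.4 ± 1.20 in KO and 3066 ± 42.5 in WT. By mean CPM, not scaled to exon length, it stood at rank 2369 of the 12939 tested genes in KO and at rank 17 in WT.

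Lyz1 had 327.9, 332.4 and 324.1 CPM in KO macrophages, against 928.2, 858.9 and 936.1 CPM in WT macrophages. Again the groups did not overlap. The means were 328 ± 4.17 CPM in KO and 908 ± 42.5 CPM in WT (SD, n = 3 each), a log2 fold change of -1.47 (SE 0.0289), or 2.77-fold lower in KO, and 113 genes had a lower one. Per kilobase of exon Lyz1 had 260 CPM in KO and 718 CPM in WT. Both genes together gave 412 ± 5.71 CPM in KO and 4790 ± 67.9 CPM in WT. Because the KO contrast entered the choice of these genes, it is set here beside the background alone: 37.7% of the 12939 tested genes were called (adjusted p below 0.05), 18.8% higher and 18.9% lower in KO, and 46.5% had groups that did not overlap. In bulk samples, fewer cells of a type and less RNA per cell cannot be told apart.

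**Figure D1:**
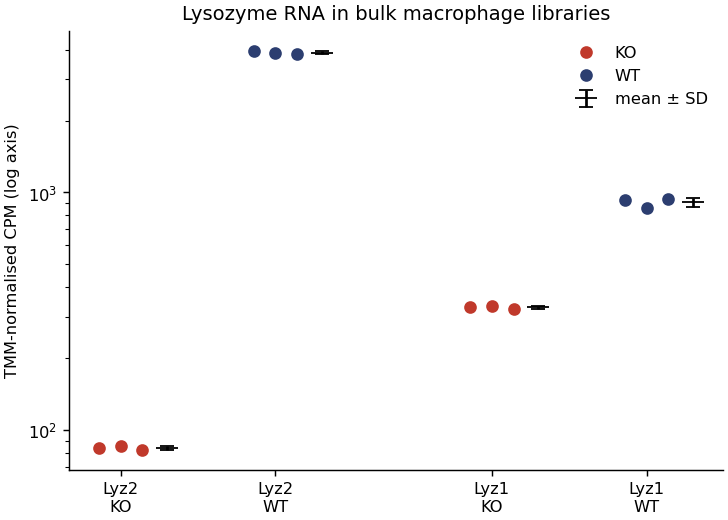
TMM-normalised CPM of Lyz2 and Lyz1 (log axis) in each bulk macrophage library, with mean ± SD of 3 libraries beside the points. The KO libraries of Lyz2 sit at 82.5 to 85.6 CPM and the WT libraries at 3830 to 3938 CPM, and for Lyz1 the KO libraries also lie below the WT libraries, by a smaller step.

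The order of the 2 genes was exchanged between genotypes. Of the counts assigned to the pair, Lyz1 took 79.61%, 79.53% and 79.70% in the KO libraries, against 19.08%, 18.14% and 19.64% in the WT libraries. This share, which does not depend on library scaling, averaged 79.6% ± 0.0850 in KO and 18.95% ± 0.758 in WT (SD, n = 3 each). The count files leave out reads that map to more than one place, so reads from stretches that the genes share are in neither value, and the levels of near-identical genes are uncertain for that reason.

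The targeted gene Ogt, on chromosome X, had 32.0, 39.1 and 33.0 CPM in KO libraries and 61.0, 58.7 and 49.2 CPM in WT libraries. Its log2 fold change was -0.72 (SE 0.0953, adjusted p = 2.98e-09, edgeR quasi-likelihood test). These counts cover the whole gene and do not single out the floxed exons. The label macrophage was met by its markers in both groups: all 12 macrophage markers passed the filter on low counts, and their summed level was 11320 to 11520 CPM in KO and 12110 to 12390 CPM in WT, with 6 called higher and 5 lower, beside 37.7% of all genes tested, as for the lists that follow. The 12 monocyte markers summed to 1968 to 1982 CPM in KO and 1902 to 1945 CPM in WT (7 higher, 2 lower). Neutrophil markers summed to 144.5 to 146.1 CPM in KO and 172.7 to 187.6 CPM in WT (8 markers, 1 higher, 4 lower), and migratory dendritic cell markers to 216.9 to 219.5 CPM in KO and 560.2 to 579.8 CPM in WT (5 of 6 tested, 0 higher, 5 lower). CD8 T cell markers summed to 130 to 139 CPM in KO and 59.1 to 60.4 CPM in WT (5 of 5 higher). Type 1 dendritic cell markers summed to 1883 to 1897 CPM in KO and 1426 to 1452 CPM in WT (5 of 5 higher). Type 2 dendritic cell markers summed to 2220 to 2290 CPM in KO and 2416 to 2472 CPM in WT (6 markers, 1 higher, 3 lower). B cell markers summed to 105.7 to 111.4 CPM in KO and 53.1 to 55.8 CPM in WT (5 of 6 tested, 2 higher, 1 lower). None of these defining markers was at 0, and their part in the lysozyme levels was not tested.

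Single cells gave the levels by cell class. After removal of called doublets, 9767 KO and 9712 WT cells were used, with a median of 5807 and 5579 unique molecular identifiers (UMIs) per cell, and 23 cell barcodes occurred in both matrices. Cells were clustered without Lyz1, Lyz2 and Ogt, so these genes did not shape the classes. Each genotype is 1 matrix, so there is no replicate check, and every interval below covers counting error only. The monocyte-like class held 826 KO and 946 WT cells and was led by Chil3, Hp, Ace and Plac8. The macrophage-like class held 1312 KO and 1716 WT cells in 4 clusters, led by C1qb with MHC class II genes, by interferon-induced genes such as Ifit2 and Rsad2, or by Ccl12 with C1qa. At a finer clustering a cluster led by Ifit2, Ifit3 and Rsad2 (335 KO and 485 WT cells) was monocyte-like instead. The name of the interferon-gene cells thus rests on the resolution. The neutrophil-like class held 760 KO and 604 WT cells and was led by S100a8 and S100a9. A cluster led by Arg1, Pf4 and Retnla (1458 KO and 1172 WT cells) had no class name, because a monocyte marker, F13a1, stood among its leading genes, and neither had a dendritic cluster that mixed Cd209a and Clec9a (205 KO and 254 WT cells).

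Lyz2 was far lower in KO in every one of these myeloid groups, and the monocyte-like class was the highest in WT. Monocyte-like cells had 17.4 CPM of Lyz2 in KO (95% exact Poisson interval 14.1 to 21.3) and 7820 CPM in WT (7748 to 7892), a level 448-fold lower in KO (367 to 554). Macrophage-like cells had 12.9 CPM in KO (11.07 to 15.01) and 3278 CPM in WT (3249 to 3307), 254-fold lower in KO (218 to 296). In both classes the KO and WT intervals lay far apart. The Arg1, Pf4 and Retnla cluster had 13.96 CPM in KO and 2496 CPM in WT, 179-fold lower in KO (151 to 213). The dendritic cluster had 4.32 CPM in KO and 574 CPM in WT, 133-fold lower in KO (74.0 to 267). Plasmacytoid dendritic-like cells were few, with 2 Lyz2 UMIs in 18 KO cells and 6 in 33 WT cells, and gave no readable difference.

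Neutrophil-like cells stood apart in order and in size of the difference. They had 46.0 CPM of Lyz2 in KO (37.4 to 55.9) and 307.5 CPM in WT (281 to 336), 6.69-fold lower in KO (5.39 to 8.37), an interval that does not meet those of the monocyte- and macrophage-like classes. In KO they had the highest Lyz2 level of all classes, above the monocyte-like interval, whereas in WT they were below monocyte- and macrophage-like cells and the dendritic cluster. Neutrophil-like cells were also the shallowest of the named classes, with a median of 2512 UMIs in KO and 2300 in WT, against 7132 and 7156 UMIs in macrophage-like cells of KO and WT. When cells under 2000 UMIs were left out as part of a stricter cell filter, the neutrophil-like log2 ratio was -4.32, against -2.62 with all cells (pseudocount 5 CPM), so the size of that difference rests on the cell filter. With called doublets kept it was -3.58.

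Among the 4 macrophage-like clusters, Lyz2 ran from 6.30 to 15.4 CPM in KO and from 1910 to 5256 CPM in WT. In WT the highest was the low-depth cluster led by Ccl12 and Cd63 (5256 CPM, 5003 to 5519), followed by the cluster led by Ccl12, Cadm1 and Vcam1 (3426 CPM) and the C1qb and MHC class II cluster (3345 CPM), whose intervals overlapped, and then by the interferon-gene cluster (1910 CPM, 1835 to 1988). In KO the same clusters had 6.30 CPM (1.30 to 18.4), 15.4 CPM (12.5 to 18.9), 11.7 CPM (9.14 to 14.8) and 7.18 CPM (2.64 to 15.6), and their intervals overlapped. A finer clustering redrew the monocyte-like class, which then held 2989 cells in place of 1772. The cells led by Chil3, Mgst1 and Hp, which are classical monocyte genes, had 23.3 CPM of Lyz2 in KO and 11440 CPM in WT. The cells led by Ace and Adgre4, genes of non-classical monocytes, had 12.6 CPM in KO and 3602 CPM in WT. Monocyte-like cells led by Gab1, Plcb1 and Thbs1 had 11.6 CPM in KO and 2590 CPM in WT. Those led by Ifit2, Ifit3 and Rsad2 had 8.86 CPM in KO and 4472 CPM in WT. At that resolution a type 2 dendritic-like cluster had 5.59 CPM in KO and 815 CPM in WT, and a type 1 dendritic-like cluster had 3.52 CPM in KO and 324 CPM in WT.

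Lyz1 went the other way: it was higher in KO than in WT in the monocyte-, macrophage- and neutrophil-like classes, although it was lower in KO in the bulk libraries. Monocyte-like cells had 268.8 CPM of Lyz1 in KO (255 to 283) and 7.96 CPM in WT (5.83 to 10.6), 33.8-fold higher in KO (25.2 to 46.3). Macrophage-like cells had 131.4 CPM in KO (125 to 138) and 4.92 CPM in WT (3.86 to 6.18), 26.7-fold higher in KO (21.2 to 34.2). The log2 ratio of this class was 3.78, and 2.95 at Leiden resolution 0.5, 3.0 at resolution 2, 4.58 with the stricter cell filter and 4.48 with a pseudocount of 1 in place of 5 CPM, so the size depends on these choices and the direction did not turn. The class held from 778 to 5930 cells over all alternatives run, against 3028 here. Neutrophil-like cells had 14.6 CPM in KO (9.96 to 20.6) from 32 UMIs, and 1.89 CPM in WT (0.391 to 5.54) from 3 UMIs, 7.69-fold higher in KO (2.405 to 39.2), but 23 of the 32 KO UMIs lay in 1 cell. The Arg1, Pf4 and Retnla cluster had 111 CPM in KO and 26.4 CPM in WT, 4.22-fold higher in KO (3.61 to 4.95), and its WT level was above that of any named class, with 143 of its 190 WT UMIs in 4 cells. The dendritic cluster had 46.3 CPM in KO and 2.49 CPM in WT, 18.6-fold higher in KO (8.75 to 47.3).

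The 4 macrophage-like clusters each had more Lyz1 in KO, by different amounts. The Ccl12, Cadm1 and Vcam1 cluster had 187.9 CPM in KO and 3.44 CPM in WT, 54.7-fold higher in KO (29.6 to 114). The C1qb and MHC class II cluster had 79.7 CPM in KO and 3.98 CPM in WT, 20.02-fold higher (14.6 to 28.1). The interferon-gene cluster was the lowest in KO, with 16.8 CPM in KO and 1.57 CPM in WT. The Ccl12 and Cd63 cluster had the highest KO level of the 4, with 264.6 CPM in KO and 65.2 CPM in WT, a difference of 4.06-fold (2.52 to 6.87), and its 20 WT UMIs came from 1.79% of 112 cells. In the finer clustering the Chil3, Mgst1 and Hp monocytes had 365.7 CPM in KO and 7.50 CPM in WT, and the Ace and Adgre4 monocytes 84.6 CPM in KO and 3.89 CPM in WT. The Gab1, Plcb1 and Thbs1 cells there had 84.4 CPM in KO and 5.35 CPM in WT. The Ifit2, Ifit3 and Rsad2 cells, monocyte-like at that resolution, had 142.7 CPM in KO and 8.24 CPM in WT.

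**Figure D2:**
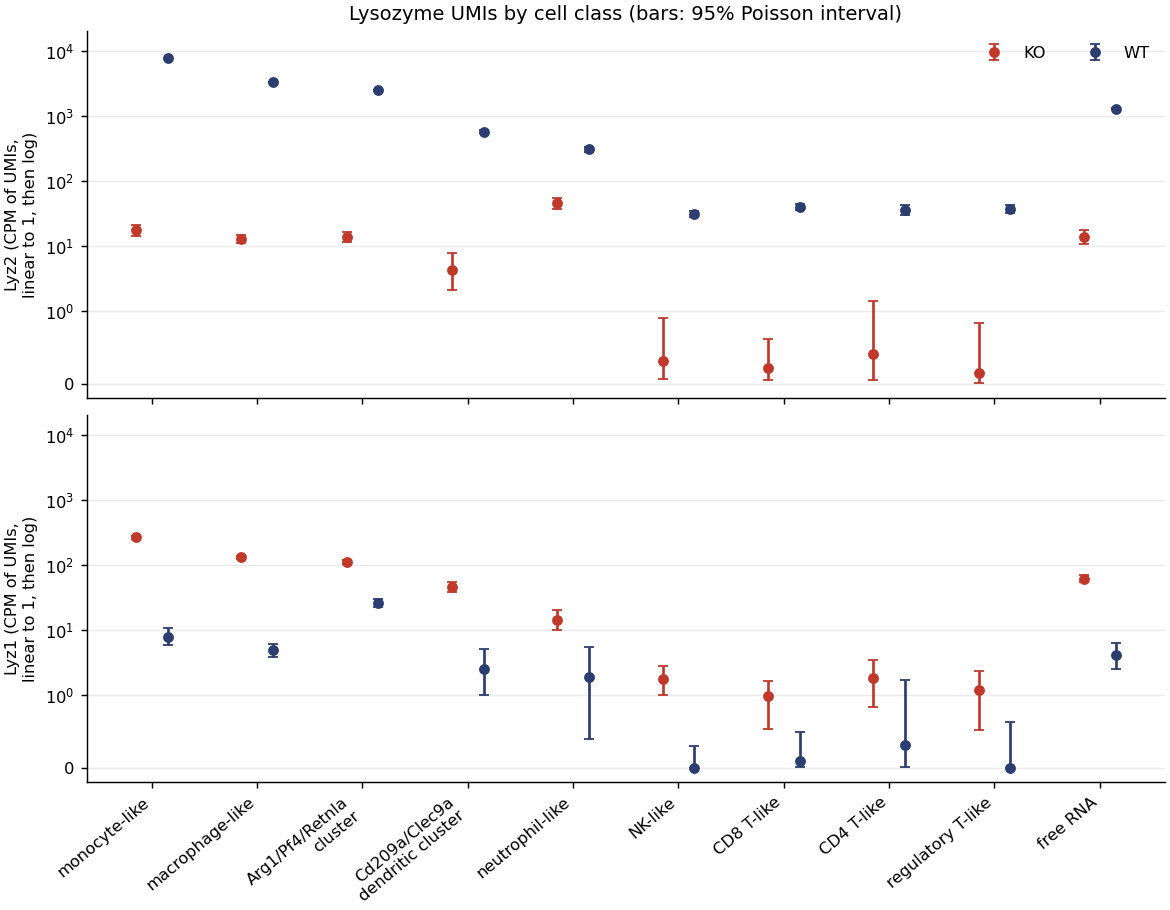
Lyz2 (top) and Lyz1 (bottom) levels in CPM of UMIs by cell class and in free RNA, with 95% exact Poisson intervals, on an axis that is linear to 1 and logarithmic above. Lyz2 is lower in KO in each group drawn, from 17.4 CPM in KO against 7820 CPM in WT in monocyte-like cells to below 1 CPM in KO lymphocytes, and Lyz1 is higher in KO in the 5 myeloid groups.

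The share of Lyz1 in the pair shows both shifts at once. In KO, Lyz1 made up 93.9% of the pair's UMIs in monocyte-like cells (95% Clopper-Pearson interval 92.6 to 95.04) and 91.0% in macrophage-like cells (89.7 to 92.3), against 0.102% (0.0745 to 0.136) and 0.150% (0.118 to 0.188) in the same WT classes. The KO share was 88.9% in the Arg1, Pf4 and Retnla cluster and 91.5% in the dendritic cluster, against 1.05% and 0.432% in WT. Neutrophil-like cells were the exception in KO, with 24.1% (17.1 to 32.2) in KO and 0.612% (0.126 to 1.78) in WT. In the WT bulk libraries the share was 18.1% to 19.6%, well above the 1.05% of the highest of these WT groups in single cells. In the KO bulk libraries it was 79.5% to 79.7%, below the macrophage-like share. The bulk and single cell values come from different counting methods, and whether the way reads of the 2 genes were told apart moved with this difference was not tested.

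**Figure D3:**
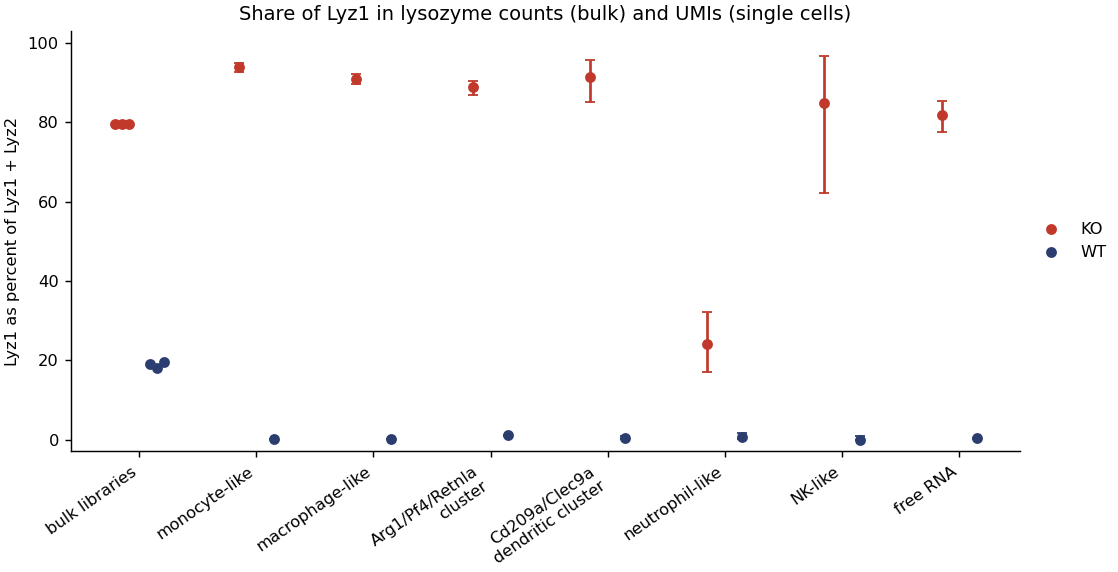
Lyz1 as a percent of Lyz1 plus Lyz2, from read counts in bulk libraries (3 points per genotype) and from UMIs in single cell groups and free RNA (bars: 95% Clopper-Pearson interval). KO points lie at 79.5% or higher except for neutrophil-like cells at 24.1%, and WT points lie at 18.1% to 19.6% in bulk and at or below 1.05% in single cells.

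Free RNA was read from barcodes with 1 to 100 UMIs, which mostly hold no cell. It carried 13.9 CPM of Lyz2 in KO (10.8 to 17.5) and 1292 CPM in WT (1261 to 1323). Lyz1 had 62.1 CPM in KO (55.4 to 69.3) and 4.15 CPM in WT (2.57 to 6.34). The free RNA therefore showed the same pair of shifts as the myeloid cells, with 81.8% of the pair being Lyz1 in KO and 0.320% in WT. With barcodes of 1 to 50 UMIs, Lyz2 was at 25.7 CPM in KO (19.04 to 33.8) and 1396 CPM in WT, and Lyz1 made up 65.5% of the pair in KO (57.2 to 73.2) and 0.288% in WT. Lymphocytes, which should lack lysozyme, were measured beside it as background. CD8 T-like cells had 0.211 CPM of Lyz2 in KO and 39.8 CPM in WT, NK-like cells 0.309 CPM in KO and 31.0 CPM in WT, and regulatory T-like cells 0.151 CPM in KO and 37.5 CPM in WT. A few cells carried part of the WT level: 185 WT CD8 T-like cells had 1 Lyz2 UMI and 26 had 2 to 4, but 2 had 5 to 9, 2 had 10 to 19, 2 had 20 to 49 and 2 had 50 to 99, the highest with 62. The Lyz1 level was 0.986 CPM in KO and 0.0881 CPM in WT in CD8 T-like cells, and 1.75 CPM in KO and 0 UMIs in WT in NK-like cells. In KO lymphocytes Lyz1 made up 82.4% of the pair in CD8 T-like (56.6 to 96.2) and 85.0% in NK-like cells (62.1 to 96.8), from 14 Lyz1 and 3 Lyz2 UMIs in the CD8 T-like and 17 Lyz1 and 3 Lyz2 UMIs in the NK-like cells. Where the lysozyme UMIs of lymphocytes came from was not tested.

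To compare shares of cells with a UMI, each cell was thinned to 1000 UMIs, the minimum of the cell filter, so no cell was lost to the thinning. A Lyz2 UMI was then present in 0.726% of monocyte-like cells in KO (0.267 to 1.57) and 88.9% in WT (86.7 to 90.8). In macrophage-like cells it was present in 0.610% in KO (0.264 to 1.20) and 73.3% in WT (71.1 to 75.3). Neutrophil-like cells had 4.34% in KO (3.01 to 6.04) and 15.7% in WT (12.9 to 18.9). CD8 T-like cells, the background, had 0.0669% in KO (up to 0.372) and 2.94% in WT (2.02 to 4.13), at median depths of 7590 and 7992 UMIs. At the thinned depth, the KO monocyte- and macrophage-like intervals overlapped that of CD8 T-like cells, and the KO neutrophil-like interval lay above it. Unthinned shares were 9.20% of monocyte-like, 9.68% of macrophage-like and 10.0% of neutrophil-like cells in KO, against 95.6%, 91.4% and 29.8% in WT. The corresponding unthinned share of CD8 T-like cells was 0.201% in KO and 20.2% in WT. At full depth, the Lyz2 left in KO monocyte-, macrophage- and neutrophil-like cells was thus above the lymphocyte background, both in this share and in CPM. That depth was similar in macrophage- and CD8 T-like cells. In CPM, the KO free RNA interval (10.8 to 17.5) overlapped those of monocyte-like (14.1 to 21.3) and macrophage-like cells (11.07 to 15.01). With barcodes of 1 to 50 UMIs the free RNA interval (19.04 to 33.8) still overlapped the monocyte-like interval but lay above the macrophage-like interval. The neutrophil-like interval (37.4 to 55.9) lay above both free RNA intervals. The part of free RNA in these levels was not tested.

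A Lyz1 UMI was present after thinning in 7.02% of monocyte-like cells in KO (5.38 to 8.98) and 0.317% in WT (0.0655 to 0.924). It was present in 6.40% of macrophage-like cells in KO (5.14 to 7.87) and 0.350% in WT (0.128 to 0.760). In CD8 T-like cells it was present in 0.268% in KO (0.0730 to 0.684) and in 0 of 1087 cells in WT, which allows up to 0.339%. At the thinned depth the WT intervals of both myeloid classes overlapped this background, and so did those of neutrophil-like cells, at 0.526% in KO and 0.166% in WT. Unthinned, 10.7% of monocyte-like and 19.6% of macrophage-like cells had a Lyz1 UMI in KO, against 1.06% and 1.81% in WT. CD8 T-like cells had 0.870% in KO and 0.0920% in WT without thinning, below those values in both genotypes.

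Per cell, Lyz2 and Lyz1 were distributed in different ways. In WT, Lyz2 was broad: monocyte-like cells had a median of 31 UMIs, with quartiles of 9 and 74 and a maximum of 299, and macrophage-like cells a median of 14, with quartiles of 3 and 41 and a maximum of 414. In KO no monocyte-, macrophage- or neutrophil-like cell had more than 4 Lyz2 UMIs, and 0 of 826 monocyte-like and 0 of 1312 macrophage-like cells reached the WT median of Lyz2 relative to the UMIs of the cell. Lyz1 in KO was concentrated in few cells. Of 826 KO monocyte-like cells, 738 had 0 Lyz1 UMIs, and 37 cells with 10 or more (4.48%) held 1337 of the 1480 Lyz1 UMIs (90.3%), the highest with 73. Of those cells, 6 had 10 to 19 UMIs, 26 had 20 to 49 and 5 had 50 to 99. Of 1312 KO macrophage-like cells, 57 with 10 or more (4.34%) held 65.6% of the Lyz1 UMIs, and the cells spread more evenly over the lower counts, with 75 at 2 to 4 UMIs and 47 at 5 to 9.

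**Figure D4:**
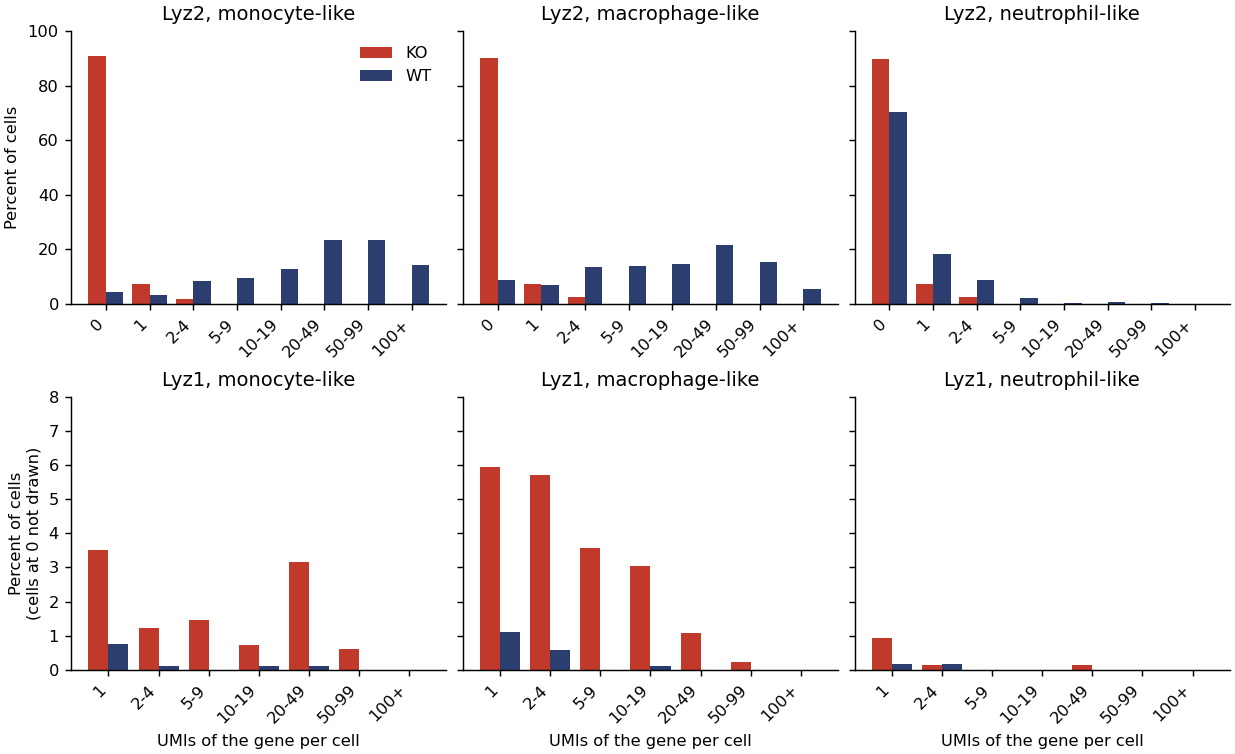
Percent of cells by number of Lyz2 UMIs (top) and Lyz1 UMIs (bottom, cells at 0 not drawn) in 3 cell classes. In WT, Lyz2 spreads up to 100 or more UMIs in monocyte- and macrophage-like cells and to at most 74 in neutrophil-like cells. In KO it stops at 4 in each class. Lyz1 reaches 50 to 99 UMIs in 5 of 826 KO monocyte-like and 3 of 1312 KO macrophage-like cells.

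The Lyz2 level of Lyz1-rich KO cells rested on few Lyz2 UMIs. They numbered 23 in macrophage-like cells, 5 in monocyte-like cells and 13 in the Arg1, Pf4 and Retnla cluster. No interval was computed for these levels, so the differences below, which varied in direction, may lie within counting error. In KO macrophage-like cells with 5 or more Lyz1 UMIs, Lyz2 was at 10.2 CPM, against 14.7 CPM in those with 0 Lyz1 UMIs, although the median depth was 19797 UMIs in the 104 Lyz1-rich cells and 6328 in the 1055 cells without it, and a Lyz2 UMI was present in 18.3% and 9.10% of them. In KO monocyte-like cells the values were 12.9 CPM in 49 Lyz1-rich cells and 18.3 CPM in 738 cells with 0 Lyz1 UMIs, at median depths of 7806 and 6354 UMIs. The Arg1, Pf4 and Retnla cluster in KO went the other way, with 20.2 CPM of Lyz2 in 56 Lyz1-rich cells and 13.5 CPM in 1309 cells with 0 Lyz1 UMIs, at median depths of 8694 and 5493 UMIs. In WT the few Lyz1 UMIs lay in cells rich in Lyz2. WT macrophage-like cells with 50 or more Lyz2 UMIs had 10.8 CPM of Lyz1, those with 10 to 49 had 2.16 CPM, those with 1 to 9 had 0.334 CPM and those with 0 had 0 UMIs of Lyz1. Depth moved along with these groups, with medians of 14435, 9023, 4411 and 2674 UMIs, and its part was not tested.

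The genes whose pattern was most like that of Lyz2 were found over 9 named classes of the WT matrix, by Pearson correlation of log2(CPM + 5) among 8720 genes with 20 CPM or more in some class. They were Ifi205 (r = 0.997), an interferon-inducible gene, Adap2 (0.996), Fcgr1 (0.995), which encodes a high-affinity Fc receptor of monocytes and macrophages, Parvb (0.995) and Ltbr (0.994), the lymphotoxin beta receptor. All 5 were highest in monocyte-like cells. Lyz1 itself had an r of 0.849 with Lyz2, but its highest WT class was at 7.96 CPM, near the pseudocount, so its WT neighbours (Ptpro, Slc8a1, Alpk1, Gab1 and BC028528, 0.977 to 0.986) are read with care. Over the 9 classes of the KO matrix, a measure added after the WT values were seen, the closest to Lyz1 were Gm35154 (0.998), Hfe (0.997), Clec4a1 (0.997), Msantd3 (0.997) and Ifi205 (0.996). The classes share libraries and depth, and these correlations over 9 points are descriptions.

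Other lysozyme-family genes were almost silent. All 8 (Lyg1, Lyg2, Lyzl1, Lyzl4, Lyzl6, Spaca3, Spaca5 and Lalba) were in the count files and 0 passed the filter on low counts, with 6 of the 8 at 0 counts in all 6 libraries. No other member of the family was measurable at this depth.

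Transcription factors described to act on lysozyme genes or on myeloid promoters were called in 10 of 12 cases, 3 higher and 7 lower in KO, beside 37.7% of all genes tested, and their median log2 fold change was -0.23, against -0.00128 over all genes tested. Cebpb, a C/EBP factor that acts in macrophage gene activation, had 148, 172 and 134 CPM in KO libraries and 712, 774 and 719 CPM in WT libraries. It fell by 2.28 on the log2 scale (SE 0.0404, adjusted p = 5.24e-54, edgeR). Cebpa, a C/EBP factor of myeloid differentiation, fell by 0.74 (SE 0.0371, adjusted p = 1.52e-27), and Ets2, an ETS factor, fell by 0.29 (adjusted p = 6.05e-16). Irf8, needed for monocyte and dendritic development, rose by 0.24 (adjusted p = 9.98e-12). Spi1, which encodes PU.1, a master factor of myeloid cells, had 588, 590 and 552 CPM in KO and 657, 632 and 658 CPM in WT, a log2 fold change of -0.17 (SE 0.0280, adjusted p = 7.04e-07). Egr2, the factor profiled in the study, had 143 ± 10.6 CPM in KO and 265 ± 9.54 CPM in WT (SD, n = 3 each; log2 fold change -0.90, edgeR adjusted p = 9.48e-28).

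In single cells the Cebpb values of the genotypes lay closer together. Cebpb had 2190 CPM in KO and 2878 CPM in WT in macrophage-like cells, 4249 CPM in KO and 4669 CPM in WT in monocyte-like cells, and 8329 CPM in KO and 8937 CPM in WT in neutrophil-like cells. Cebpa, which was lower in KO in bulk, was not lower in KO macrophage- or monocyte-like cells. It had 82.5 CPM in KO and 70.8 CPM in WT in macrophage-like cells, and 42.3 CPM in KO and 37.9 CPM in WT in monocyte-like cells. In neutrophil-like cells Cebpa had 10.01 CPM in KO and 10.1 CPM in WT. Spi1 had 459.8 CPM in KO and 450.5 CPM in WT in macrophage-like cells, and Ogt 37.1 CPM in KO and 42.4 CPM in WT. In neutrophil-like cells Ogt had 63.7 CPM in KO and 107 CPM in WT. These are single matrices, without a test.

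Antibacterial proteins of phagocytes, the company in which lysozyme works, moved in both directions. Of 21 listed, 13 were tested, 4 rose and 6 fell in KO, beside 18.8% of all tested genes called higher and 18.9% called lower, with a median log2 fold change of -0.10. Mpeg1, which encodes perforin-2, a pore-forming protein of phagocytes, had 1275 ± 12.4 CPM in KO and 807 ± 23.6 CPM in WT (SD, n = 3 each) and rose by 0.66 on the log2 scale (edgeR adjusted p = 6.10e-36). Cybb, the catalytic subunit of the phagocyte NADPH oxidase, had 969 ± 19.1 CPM in KO and 619 ± 15.2 CPM in WT and rose by 0.65 (edgeR adjusted p = 1.61e-33). Chil3, a chitinase-like protein, rose by 1.74 at a low level of 23.0 CPM in KO and 7.004 CPM in WT (adjusted p = 6.95e-14), and Wfdc17 rose by 0.38 (adjusted p = 1.93e-05). The 6 that fell were Nos2, S100a9, Acod1, Slc11a1, Prtn3 and Slpi, with log2 fold changes of -2.17 for S100a9, a neutrophil gene at 0.866 CPM in KO and 3.85 CPM in WT, to -0.10 for Slc11a1.

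Genes that sense peptidoglycan and its fragments were called in 8 of 13 cases, 4 higher and 4 lower in KO, beside 37.7% of all genes tested, with a median log2 fold change of 0.21. Cd14, a co-receptor for bacterial products, had 1358, 1380 and 1335 CPM in KO libraries and 1950, 2027 and 2002 CPM in WT libraries, and fell by 0.55 (SE 0.0201, edgeR adjusted p = 1.90e-35). Nlrp3, an inflammasome sensor, fell by 0.26 (adjusted p = 1.03e-13). The cytosolic receptors of peptidoglycan fragments were both higher: Nod1 rose by 0.64, with 93.9 ± 4.84 CPM in KO and 60.2 ± 4.37 CPM in WT (edgeR adjusted p = 1.45e-11), and Nod2 rose by 0.42, with 142 ± 6.87 CPM in KO and 106 ± 6.25 CPM in WT (edgeR adjusted p = 3.63e-09).

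Around the pair itself, 20 genes lie within 500 kb and 9 were tested. Of these, 2 were higher and 1 was lower in KO, which at 3 of 9 is near the 37.7% of all genes. The median log2 fold change of the 9 was 0.24, and that of all tested genes on chromosome 10 was -0.01. Yeats4, a chromatin reader 52.8 kb from the pair, had 43.2, 38.5 and 34.0 CPM in KO libraries and 62.4, 60.0 and 54.6 CPM in WT libraries, and fell by 0.60 (SE 0.0910, adjusted p = 8.54e-08). Mdm2, the ubiquitin ligase of p53, 396 kb away, rose by 0.24 (SE 0.0324, adjusted p = 3.62e-09). Cpm, which encodes carboxypeptidase M, 336.6 kb away, rose by 0.74 (adjusted p = 0.0174) at 6.37 CPM in KO and 3.85 CPM in WT, and was no longer called without KO replicate 1 (adjusted p = 0.221) or without WT replicate 3 (adjusted p = 0.0505), all by edgeR's quasi-likelihood test. Cpsf6, the tested gene nearest to the pair at 51.8 kb, had 66.3 ± 4.597 CPM in KO and 61.7 ± 5.44 CPM in WT (SD, n = 3 each) and was not called.

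**Figure D5:**
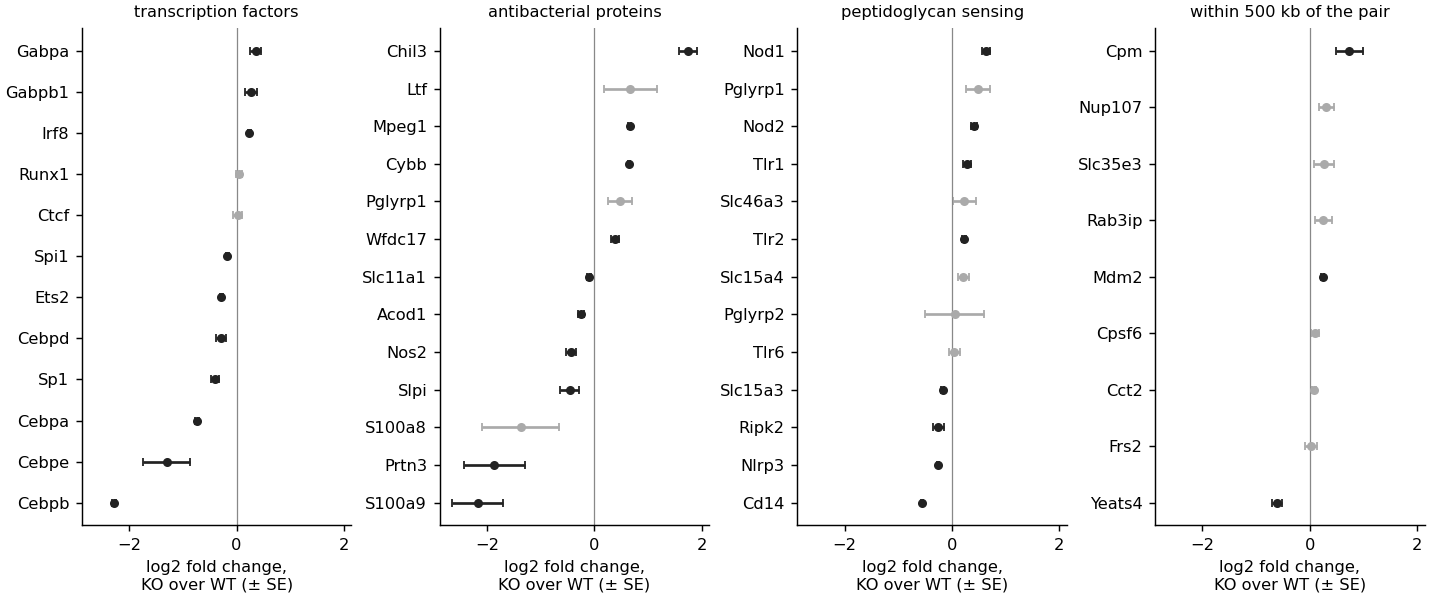
Log2 fold changes in bulk (KO over WT, ± SE) of the tested genes in 4 lists, black where the edgeR adjusted p was below 0.05 and grey elsewhere. Cebpb has the lowest value, -2.28, among the transcription factors, and the antibacterial and peptidoglycan-sensing lists hold values on both sides of 0.

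The peak lists held little at the locus. No EGR2 peak lay within 100 kb of the pair: the nearest was 241.1 kb away in the KO list of 4995 peaks and 252.9 kb away in the WT list of 5408 peaks. Of 30189 merged ATAC regions, 3 lay within 50 kb and 0 overlapped either gene. All 3 lay past the 3′ end of Lyz2: one called in KO at 23.0 kb (chr10:117253796-117254296) and 2 called in WT at 5.8 kb (chr10:117271053-117271553) and 23.8 kb (chr10:117253077-117253577). Their scores, given by the authors for each peak, were 8.28, 14.1 and 10.2, each below the list's median of 15.3. The KO-called and the WT-called regions near 23 kb are neighbours on the chromosome, and no statement on a change can be drawn from a merged list. Lyz2 stood at rank 17 of 12939 tested genes in WT bulk RNA, yet no region in the list overlapped it. A missing region or peak is therefore not read here as closed or unbound DNA.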

How the data were processed

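Bulk values are raw read counts per gene; per the file headers the authors made them with featureCounts 2.0.6 on GENCODE gene models, counting each read of a pair, ignoring strand and leaving out multi-mapped reads. The deposited single cell matrices hold UMI counts for every barcode; per the file headers they were written by Cell Ranger 8.0.1. The deposited peak lists hold a score per peak; which peak caller made them is not given in the sources used here. Genome build mm10 was used, per the submitters' processing notes.

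Lyz1, Lyz2 and all gene lists were chosen with earlier results of these data known. Bulk counts were fitted with edgeR 4.0.16 (filterByExpr, TMM, quasi-likelihood F-test, 2-sided, 3 KO and 3 WT libraries) in R 4.3.3, with Benjamini-Hochberg adjustment over 12939 genes. DESeq2 1.42.0 was an alternative. A test on simulated counts called 26 of 67, 54 of 67 and 65 of 66 genes changed 1.5-, 2- and 4-fold. Its spread between libraries was preset alike for every gene and not estimated from these libraries, so these rates need not hold for them. Named genes are the up to 4 called members of each list with the smallest adjusted p, called genes within 500 kb of the pair, Ogt, Egr2 and Spi1; others were named after their values were seen. Of 48440 identifiers, 48058 had a symbol.

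Cells had at least 500 genes, 1000 UMIs and at most 10% mitochondrial UMIs. Doublets were called with Scrublet (319 of 10086 KO and 501 of 10213 WT cells) and removed. Leiden clustering in scanpy 1.11.5 at resolution 1 (2 for the finer one) was based on 15 neighbours in 30 principal components of the 2000 most variable genes. Cluster names were rebuilt here from marker lists, since no annotation was used. Poisson and Clopper-Pearson intervals are at 95%. Alternatives are given in the closing section.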

Additional observations from a re-analysis of the deposited data

Results flagged for a closer look

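Lyz1 differed in direction between the assays. Its log2 fold change, KO over WT, was -1.47 in the bulk macrophage libraries, where each of the 3 KO libraries lay below each of the 3 WT libraries, and the log2 ratio was 3.78 in macrophage-like single cells, where the KO matrix lay above the WT matrix. The difference between the assays was not tested, since the single cells have 1 matrix per genotype. Groups of 3 libraries were too small for the search for single libraries far from the others.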

How the results depend on the processing

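The bulk log2 fold changes of Lyz2 and Lyz1 kept their direction under all alternatives run (DESeq2, its size factors, no filter, read pairs, replicate block, each library left out). Leaving out 1 library gave -5.54 to -5.52 for Lyz2, -1.51 to -1.45 for Lyz1, 1981 to 2302 genes called higher, 2010 to 2297 called lower, 22 to 27 listed genes called (28 with all), 2 to 4 called within 500 kb (3 with all), and a Lyz1 share of 79.57% to 79.66% in KO and 18.61% to 19.36% in WT. Replicate numbers did not pair the libraries (same-numbered correlations of deviations -0.00134, 0.00169 and 0.00933, with KO library 1 not closest to WT library 1); with the number as a block, Lyz2 was at -5.53, Lyz1 at -1.47, and 2338 higher and 2353 lower genes were called. A 1000 kb window held 6 called genes. In macrophage-like cells, the Lyz2 log2 ratio (-7.52) was -7.88 with a pseudocount of 1 CPM and -7.23 with doublets kept; that of Lyz1 (3.78) was 4.48 with a pseudocount of 1 CPM, 2.95 at Leiden resolution 0.5, 3.0 at resolution 2, 4.58 with the stricter cell filter and 4.15 with doublets kept. No direction turned in macrophage-, monocyte- or neutrophil-like cells. The share of macrophage-like cells with Lyz2 (0.61% in KO, 73.3% in WT) was 1.53% in KO and 85.0% in WT when thinned to 2000 UMIs, and 9.68% in KO and 91.4% in WT unthinned. For Lyz1 (6.40% in KO, 0.35% in WT) it was 10.9% in KO at 2000 UMIs, and 19.6% in KO and 1.81% in WT unthinned. In barcodes with 1 to 50 UMIs, free Lyz2 was 25.7 CPM in KO and 1396 CPM in WT, and free Lyz1 48.8 CPM in KO. No merged ATAC region within 50 kb (0 of 3) reached the median score. Why these values moved was not tested. Each genotype is 1 single cell matrix, and levels near 1 UMI, such as Lyz1 in WT neutrophil-like cells, are limited by depth.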
